A study of Homo sapiens with 22 samples.

Results

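The Notch ligand genes JAG1, JAG2 and DLL1, the receptor genes NOTCH1, NOTCH2 and NOTCH3, and the target genes HES1, HEY1, HEY2 and HEYL were examined in TC-32 cells, an established Ewing sarcoma line. These 10 genes were chosen by symbol as core members of the pathway, and they are 10 of 20007 protein-coding genes of the GENCODE v44 annotation. Every listed peak over a gene body and 50 kb to each side, called its window below, was taken. The windows held 109 of 90572 merged H3K27ac regions, 30 of 20727 H3K4me3 regions and 9 of 2706 ETS1 regions. Ewing sarcoma cells carry the fusion protein EWSR1::FLI1, and the series asked how that fusion regulates the transcription factor ETS1. Cells of the siNEG arm were transfected with a negative control siRNA and cells of the siFLI1 arm with an siRNA to FLI1, whose sequence the fusion carries, each at 20 nM. Both arms came from the same unmodified line and the same reverse transfection, and neither the time of harvest nor separate cultures are given in the sources used here. Each arm had 2 libraries labelled as replicates for ETS1, for H3K27ac (Active Motif antibody) and for H3K4me3, and 1 further H3K27ac library labelled ab4729. Of 22 samples, 8 were inputs with no list analysed here.

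In the Notch pathway, a ligand on one cell binds a receptor on its neighbour, and cleavage by ADAM proteases and gamma-secretase frees the receptor's intracellular domain. That domain enters the nucleus and joins the DNA-binding protein RBPJ and a Mastermind coactivator at target genes, among them the HES and HEY repressors. The fusion is known to keep JAG1 and Notch output low in Ewing sarcoma. H3K4me3 marks promoters, and H3K27ac marks active promoters and enhancers. The lists measure neither RNA nor the FLI1 knockdown itself.

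The promoter sequence of HES1 is shown because RBPJ binds TGGGAA in it, the textbook example of a Notch-responsive promoter. In the RefSeq promoters of GRCh38.p14 (250 bases before the start, both strands searched), 8 of the 10 genes were matched. TGGGAA occurred 2 times in HES1, at -84 and -70, and 2 times in HEYL, at -178 and -99. It occurred 1 time in HEY2, at -213, and in none of the ligand or receptor promoters matched. Of 35116 RefSeq promoters, 20.8% held at least 1 TGGGAA and 2.9% held at least 2. The ETS motif CCGGAA was in none of the 8, against 14.5% of all promoters. DLL1 and HEY1 were not matched. Capitals mark TGGGAA in the HES1 promoter, chr3:194135898-194136147, plus strand.
HES1 promoter: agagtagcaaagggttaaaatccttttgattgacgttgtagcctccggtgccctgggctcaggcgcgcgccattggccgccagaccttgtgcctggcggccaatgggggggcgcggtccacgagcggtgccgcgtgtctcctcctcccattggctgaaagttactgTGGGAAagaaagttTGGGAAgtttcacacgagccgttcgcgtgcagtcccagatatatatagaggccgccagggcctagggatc

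The following 200-base stretches are centred on peak summits at the places where the lists of the arms differed, or where ETS1 was listed. They are given on the plus strand of hg38, with the ETS core GGAA, or TTCC on the other strand, in capitals. They are the strongest H3K27ac gain by deposited fold, 7.4 kb upstream of HEYL (chr1:39646651-39646850), and the longest loss, 38.4 kb upstream of HES1 (chr3:194098214-194098413). The others are the gain 20.7 kb upstream of NOTCH1 (chr9:136566953-136567152), the gain 43.3 kb upstream of JAG1 (chr20:10717242-10717441), and the ETS1 summits at HES1 (chr3:194134937-194135136) and NOTCH3 (chr19:15200239-15200438).
HEYL upstream gain: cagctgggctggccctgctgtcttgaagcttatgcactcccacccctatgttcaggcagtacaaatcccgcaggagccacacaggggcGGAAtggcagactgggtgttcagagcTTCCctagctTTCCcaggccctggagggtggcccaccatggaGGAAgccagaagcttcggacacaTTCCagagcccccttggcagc
HES1 upstream loss: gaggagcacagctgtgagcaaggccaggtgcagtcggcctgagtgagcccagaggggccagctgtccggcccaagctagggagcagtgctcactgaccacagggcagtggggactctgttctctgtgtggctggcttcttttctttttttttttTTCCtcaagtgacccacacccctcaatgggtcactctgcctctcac
NOTCH1 upstream gain: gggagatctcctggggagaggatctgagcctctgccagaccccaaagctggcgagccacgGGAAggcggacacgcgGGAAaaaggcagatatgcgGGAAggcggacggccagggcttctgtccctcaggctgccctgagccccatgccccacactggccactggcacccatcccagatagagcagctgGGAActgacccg
JAG1 upstream gain: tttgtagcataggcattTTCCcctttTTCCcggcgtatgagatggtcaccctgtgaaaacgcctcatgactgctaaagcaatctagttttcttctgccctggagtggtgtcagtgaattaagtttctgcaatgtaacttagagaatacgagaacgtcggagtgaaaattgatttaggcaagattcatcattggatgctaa
HES1 ETS1 summit: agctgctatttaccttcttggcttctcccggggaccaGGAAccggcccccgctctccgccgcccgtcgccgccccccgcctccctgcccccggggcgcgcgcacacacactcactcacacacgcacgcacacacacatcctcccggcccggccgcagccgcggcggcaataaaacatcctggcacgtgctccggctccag
NOTCH3 ETS1 summit: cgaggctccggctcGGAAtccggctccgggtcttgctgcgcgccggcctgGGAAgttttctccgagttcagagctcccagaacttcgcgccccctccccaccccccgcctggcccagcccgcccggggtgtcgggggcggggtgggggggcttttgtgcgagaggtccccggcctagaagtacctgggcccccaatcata
The HEYL stretch held 5 GGAA cores and the HES1 loss held 1. The NOTCH1 stretch held 4 cores, the JAG1 stretch 2, the HES1 ETS1 summit 1 and the NOTCH3 ETS1 summit 2. TGGGAA occurred 1 time each in the HEYL gain, the NOTCH1 gain and the NOTCH3 ETS1 summit, and in none of the other 3 stretches. None of the 6 held CCGGAA. Of the 9 ETS1 regions at the members, 1 held CCGGAA within 100 bases of its summit, the region 42.1 kb upstream of NOTCH1, against 18.7% of all ETS1 regions. A match of letters is a description and not a binding site.

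The deposited lists held 60027 and 60401 H3K27ac peaks in siNEG and 65501 and 61481 in siFLI1. H3K4me3 had 18914 and 19720 in siNEG and 18344 and 18423 in siFLI1. ETS1 had 302 and 208 in siNEG and 1633 and 2635 in siFLI1. The ab4729 H3K27ac lists had 32738 peaks in siNEG and 51663 in siFLI1. The read depth of the libraries is not given in the sources used here, and it was not tested how far depth or the strength of the precipitation moved these numbers. Over 494 ETS1 regions the siFLI1 lists differed by less than counting noise (chi-square per degree of freedom 0.411), and in the list labelled replicate 1 the peaks are named with a 2. Both lists together were counted as 1 sample. All 8 Ewing sarcoma marker genes had H3K4me3 at their promoters in every list. Of 6 muscle and epithelial markers, none had H3K4me3 at its promoter, and DES had H3K27ac in the siFLI1 ab4729 list.

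All 10 genes carried an H3K4me3 peak within 1 kb of the transcription start in all 4 lists, as did 60.2% of protein-coding genes. They divided by H3K27ac. JAG1, NOTCH1, HES1 and HEY1 had an H3K27ac promoter peak in all 4 lists of the replicated antibody, as did 41.9% of coding genes. JAG2, DLL1, NOTCH2, NOTCH3, HEY2 and HEYL had none within that distance in any of the 4. This holds for the canonical start of each gene and the limit of 1 kb. JAG2 had a region in all 4 lists centred 1.6 kb downstream of its start. The region at the FAM120B promoter (chr6:170306343-170307731), also in all 4 lists, is centred within 1 kb of another annotated DLL1 start. An H3K4me3 region there was in all 4 lists, at folds of 55.7 and 64.9 in siNEG and 91.2 and 62.0 in siFLI1. The place of DLL1 in this division thus rests on the choice of its canonical start. H3K4me3 in every list with H3K27ac in none was found at 6 of the 10 genes and at 9.61% of coding genes. With the ab4729 label, NOTCH2 had a promoter peak in both arms (fold enrichment 4.2 and 9.0) and NOTCH3 had one in siFLI1 (5.3), so the absence at these genes differed between H3K27ac sets. JAG1 and HEY1 had an ab4729 promoter peak in siFLI1 and none in siNEG, while NOTCH1 and HES1 had one in both arms.

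Fold enrichment and its percentile within a list are the authors' values per peak, used within a list. At the 4 acetylated genes the H3K4me3 promoter peak had a fold of 41.0 to 68.7 and a percentile of 68.3 to 90.4. At the other 6 the fold was 2.8 to 36.0 and the percentile 1.88 to 63.9. The strongest of these 6 was NOTCH3, a receptor best known in vascular smooth muscle. It had 18.7 and 36.0 in siNEG and 23.8 and 18.6 in siFLI1. HEYL, a HEY-family repressor, lay low, with 6.0 and 2.8 in siNEG and 7.4 and 9.6 in siFLI1. In each of the 4 lists, every acetylated gene had a higher H3K4me3 fold at its canonical start than any of the other 6.

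**Figure D1:**
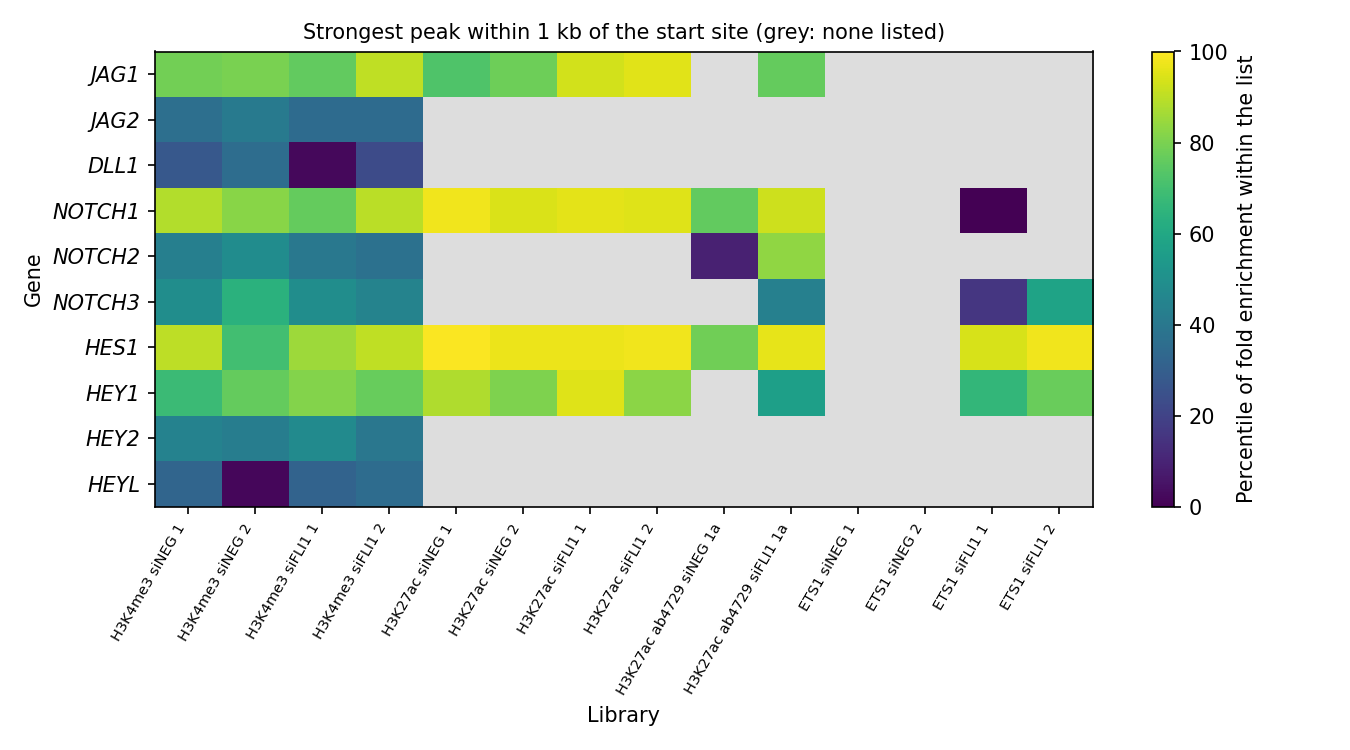
Percentile of fold enrichment, within its own list, of the strongest peak within 1 kb of the start site of each gene (rows) in each of 14 lists (columns); grey means that no peak was listed. All 10 genes have H3K4me3 in all 4 lists, while the columns of replicated H3K27ac are filled for JAG1, NOTCH1, HES1 and HEY1 and empty for the other 6.

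The length of listed peaks per window was compared between arms for all protein-coding genes, after scaling each list to the same total length. The fit was limma on log2(length + 500 bp), with Benjamini-Hochberg adjustment over 15703 genes for H3K27ac and 16056 for H3K4me3. A difference below is siFLI1 minus siNEG on that scale, which understates the change of short lengths. For H3K27ac, NOTCH1 rose and HES1 fell, and 8 of the 10 genes did not pass an adjusted p of 0.05. Over all genes tested 15.9% rose and 8.79% fell, so 1 of 10 in each direction is near the background. The median difference was 0.36 over the 10 genes and 0.11 over all genes. Without the scaling the median over all genes was 0.24.

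Among ligands, JAG1 (chr20:10637684-10673999, hg38, minus strand) encodes Jagged 1, a ligand for Notch receptors. Its window held 28.21 and 20.83 kb of H3K27ac in siNEG and 33.78 and 34.62 kb in siFLI1. Both siFLI1 values lay above both siNEG values. The difference of 0.34 (SE 0.118) did not pass, with an adjusted p of 0.064 by limma. It passed without scaling (0.49, adjusted p 0.018), without siNEG replicate 1 (0.51, adjusted p 0.0091) and in 3 other alternatives of 14.

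JAG1 was the member with the largest difference in the ab4729 pair, from 1.48 kb in siNEG to 13.46 kb in siFLI1. After scaling, this was 2.19 on the log2 scale, past the 2-fold limit set for the unreplicated pair. It was the only member past it, 1 of the 9 with enough length to be counted, against 7.12% of windows longer and 3.54% shorter over all genes. The pair has 1 library per arm and therefore no test. The siFLI1 ab4729 list covered more of the genome in all (total length ratio 0.73 on the log2 scale), and the part this played at JAG1 beyond the scaling was not tested.

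Within the JAG1 window the signal was a broad domain from the promoter through the gene body. The region at chr20:10648848-10669526 held 17.38 and 10.7 kb of peaks in siNEG and 18.81 and 18.31 kb in siFLI1. The promoter region next to it had deposited folds of 6.4 and 6.2 in siNEG, at percentiles of 72.6 and 77.8. In siFLI1 the folds were 13.8 and 16.5, at percentiles of 93.2 and 95.4. The lists differ in length, and a rank in lists of different length shows no change. Regions gained, meaning listed in both siFLI1 and neither siNEG list, lay 25.5 kb downstream of the start at chr20:10648125-10648819 and 43.3 kb upstream at chr20:10717145-10717526. The former overlaps a start site of a JAG1 transcript and was also in the siFLI1 ab4729 list (fold 4.9). It adjoins the broad domain already listed in siNEG. There a siNEG replicate 1 peak ended at 25.15 kb, and the siFLI1 replicate 1 peak of the gained region began at 25.18 kb. The folds of both gained regions were low, between 3.5 and 4.5. No other coding gene starts in the JAG1 window.

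JAG2 (chr14:105140982-105168824) encodes Jagged 2. Its window held 2.6 and 2.02 kb of H3K27ac in siNEG and 3.48 and 3.48 kb in siFLI1, without overlap, but the difference of 0.39 did not pass (SE 0.218, limma adjusted p = 0.23). Most of that length, 2.15 and 1.67 kb in siNEG and 2.85 and 3.06 kb in siFLI1, lay nearest the start of another gene. DLL1 (chr6:170282206-170306565), which encodes Delta-like 1, held 2.15 and 0.5 kb in siNEG and 2.15 and 1.7 kb in siFLI1. The DLL1 arms overlapped, and its difference of 0.47 did not pass (limma adjusted p = 0.45). It was -0.21 without siNEG replicate 2 and passed, at 1.15 (adjusted p 0.027), without siNEG replicate 1.

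Among receptors, NOTCH1 (chr9:136494433-136546048, minus strand) rose. Its window held 14.05 and 18.74 kb of H3K27ac in siNEG and 24.64 and 29.16 kb in siFLI1. The arms did not overlap, and the difference was 0.56 (SE 0.169, limma adjusted p = 0.039). Of the lengths, 10.8 and 12.71 kb in siNEG and 19.82 and 21.21 kb in siFLI1 lay nearest the NOTCH1 start and not that of SEC16A, the other coding gene of the window. The call was lost in 8 of 14 alternatives. Among them were leaving out siNEG replicate 1 (0.31, adjusted p 0.15), siFLI1 replicate 1 (0.72, adjusted p 0.1) or siFLI1 replicate 2 (0.40, adjusted p 0.3).

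NOTCH1 had 4 of the 10 gained H3K27ac regions at the members. They lay 13.4 kb downstream of the start in an intron (chr9:136532164-136533073) and upstream at 9.3 kb (chr9:136555010-136555613), 19.7 kb (chr9:136565533-136565899) and 20.7 kb (chr9:136566157-136567317). Their folds were 3.1 to 5.1. Those at 13.4 and 20.7 kb lay within 1 kb of a peak listed in siNEG. The regions at 13.4 and 9.3 kb stood at percentiles of 44.6 to 58.2 of their lists, and those at 19.7 and 20.7 kb at 5.38 to 25.0. The region 20.7 kb upstream was in both ab4729 lists, the one at 19.7 kb was in the siFLI1 ab4729 list, and the other 2 were in neither. A region 26.6 kb upstream, present in all 4 lists, held 1.37 and 0.66 kb in siNEG and 3.17 and 2.48 kb in siFLI1. In the ab4729 pair the NOTCH1 window held 9.28 kb in siNEG and 14.64 kb in siFLI1, which after scaling was a difference of -0.07.

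NOTCH3 (chr19:15159038-15200995) held 3.27 and 3.84 kb in siNEG and 5.27 and 6.17 kb in siFLI1, without overlap, and its difference of 0.48 did not pass (SE 0.203, limma adjusted p = 0.12). Nearly all of this length lay nearest other coding genes. In that window 1 lost region lay at the promoter of ILVBL. NOTCH2 (chr1:119911553-120100779) held 1.48 and 2.32 kb in siNEG and 1.34 and 2.23 kb in siFLI1. These overlapped, and none of the length lay nearest the NOTCH2 start. NOTCH2 has near-identical NOTCH2NL copies, and how reads with several matches were treated is not given in the sources used here, so its values are uncertain.

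Among targets, HES1 (chr3:194136148-194138732, plus strand) fell. HES1 encodes a basic helix-loop-helix repressor that holds back differentiation. Its window held 23.03 and 22.84 kb of H3K27ac in siNEG and 15.49 and 17.09 kb in siFLI1. The arms did not overlap, and the difference was -0.63 (SE 0.111, limma adjusted p = 0.0043). The call was lost in 3 of 14 alternatives. These were a window of 10 kb to each side (-0.35, adjusted p 0.11), the fit without siFLI1 replicate 1 (-0.52, adjusted p 0.081) and limma without trend and robust (-0.63, adjusted p 0.054).

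In length, the HES1 difference lay away from the gene body and its start. The region over the gene and downstream of it, chr3:194136118-194142956, held 6.78 and 6.74 kb in siNEG and 6.81 and 6.74 kb in siFLI1. A region 46.4 kb upstream held 8.32 and 7.89 kb in siNEG and 5.35 and 6.22 kb in siFLI1. One 4.6 kb upstream held 2.33 and 2.87 kb in siNEG and 0.5 and 1.43 kb in siFLI1. The region at the start, centred 1.4 kb upstream, kept its length at 2.44 and 2.37 kb in siNEG and 2.41 and 2.43 kb in siFLI1, but the deposited fold of its strongest peak was 23.9 and 14 in siNEG and 8.9 and 10.4 in siFLI1. Both siFLI1 folds were below both siNEG folds there, whereas in the ab4729 pair the same region had a fold of 12.8 in siNEG and 14.2 in siFLI1. In the adjacent region over the gene the folds of the arms overlapped, at 35.8 and 16.0 in siNEG and 18.9 and 21.6 in siFLI1. Folds of different lists were not tested against each other. In the regions 46.4 and 4.6 kb upstream each siFLI1 list held less than each siNEG list.

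HES1 also had 2 of the 3 lost H3K27ac regions, those in both siNEG and neither siFLI1 list. The longer, 38.4 kb upstream at chr3:194096385-194099122, spanned 2738 bp in an intron of a long noncoding gene, with folds of 7.9 and 7.0. It was in both ab4729 lists, each at a fold of 5.9. The other, 30.7 kb downstream at chr3:194166305-194167391, had folds of 5.2 and 5.4 and was in neither ab4729 list. In the ab4729 pair the HES1 window held 10.5 kb in siNEG and 11.12 kb in siFLI1, which after scaling was a difference of -0.62 and without it of 0.08. The fall at HES1 thus depends, in that pair, on the scaling.

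HEYL (chr1:39623435-39639643, minus strand) had no replicated H3K27ac nearest its own start in siNEG, where both lists are at 0 kb, and 2.86 and 1.7 kb in siFLI1. The siNEG ab4729 list, however, held a peak in the HEYL gene body, 3.77 to 4.14 kb downstream of the start, at a fold of 4.2. The whole window held 2.13 and 1.42 kb in siNEG and 4.2 and 3.02 kb in siFLI1, without overlap. Its difference of 0.73 (SE 0.251) did not pass, at a limma adjusted p of 0.063. With 10 kb to each side, which leaves out the PABPC4 promoter, it was 2.38 (adjusted p 0.005). That value depends on the 500 bp added before the logarithm, since siNEG is at 0.

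Most of the HEYL length came from 2 gained regions upstream of the gene, and 0.66 kb in siFLI1 replicate 1 came from a region 6.3 kb upstream that siFLI1 replicate 2 did not hold. The nearer, 3.4 kb upstream at chr1:39642611-39643515, had folds of 7.5 and 5.0. The farther, 7.4 kb upstream at chr1:39646406-39647693, had folds of 14.2 and 8.5, at percentiles of 93.6 and 82.0. Both were also in the ab4729 list of siFLI1, at folds of 6.0 and 7.3, and in no ab4729 list of siNEG. The regions are intergenic, and no H3K27ac peak of the replicated antibody lay within 1 kb of the HEYL start itself.

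HEY1 (chr8:79762371-79767857) and HEY2 (chr6:125747664-125761269) encode repressors that act downstream of Notch, HEY2 foremost in heart and vessels. HEY1 held 12.27 and 10.03 kb of H3K27ac in siNEG and 14.82 and 11.23 kb in siFLI1. HEY2 held 3.28 and 2.92 kb in siNEG and 3.65 and 2.94 kb in siFLI1. In both the arms overlapped, with differences of 0.07 (adjusted p = 0.77) and -0.06 (adjusted p = 0.87) by limma. All of the HEY2 length lay nearest another gene, NCOA7. HEY1 had 1 gained region, 26.0 kb downstream, with folds of 6.5 and 5.2, which was also in the ab4729 list of siFLI1 alone.

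**Figure D2:**
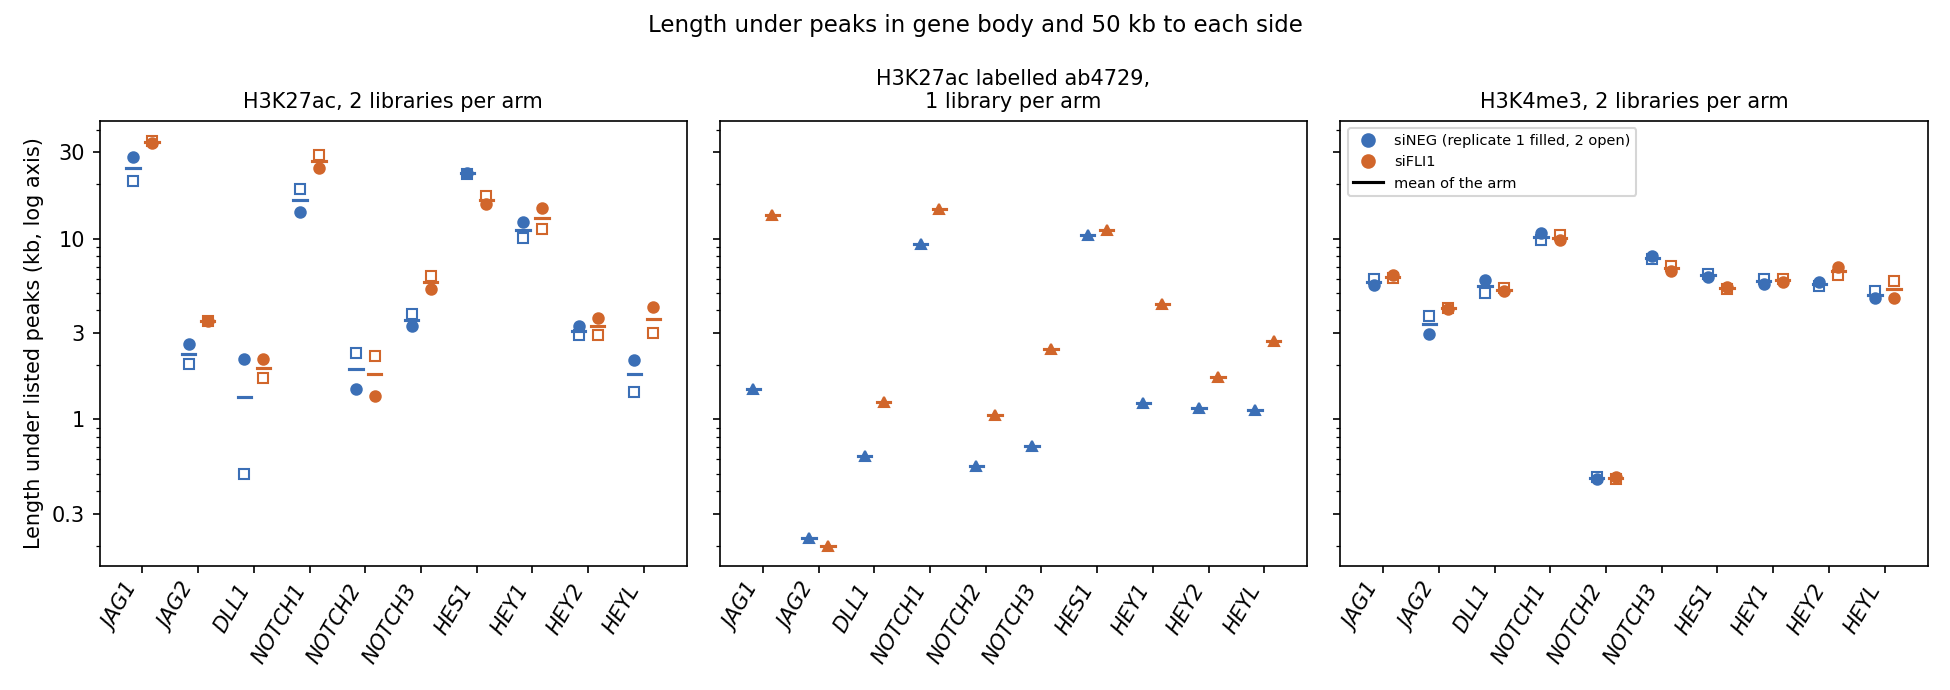
Length under listed peaks (kb, log axis) in the window of each gene, by library, for replicated H3K27ac (left), the ab4729 pair (middle) and H3K4me3 (right); blue is siNEG, orange siFLI1, filled circles replicate 1, open squares replicate 2, triangles the unreplicated pair, and bars the mean of an arm. NOTCH1 lies higher in siFLI1 (24.64 and 29.16 kb against 14.05 and 18.74 kb) and HES1 lower (15.49 and 17.09 kb against 23.03 and 22.84 kb).

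Across the members, 10 of 109 H3K27ac regions were gained (9.17%) and 3 were lost (2.75%). Over all regions the shares were 8.19% gained and 4.86% lost, so the count of gains is near the background. A further 33 were in all 4 lists (30.3%, against 25.1% of all regions). Both siFLI1 lengths lay above both siNEG lengths at JAG1, JAG2, NOTCH1, NOTCH3 and HEYL, that is at 5 of 10 genes, against 51.7% of all genes. They lay below at HES1, 1 of 10, against 15.8%. Of the 10 gained regions, 6 were in the siFLI1 ab4729 list only, 1 in both and 3 in neither. Over all gained regions the shares were 31.6% in the siFLI1 ab4729 list only, 1.94% in both, 65.6% in neither and 0.863% in the siNEG ab4729 list only.

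**Figure D3:**
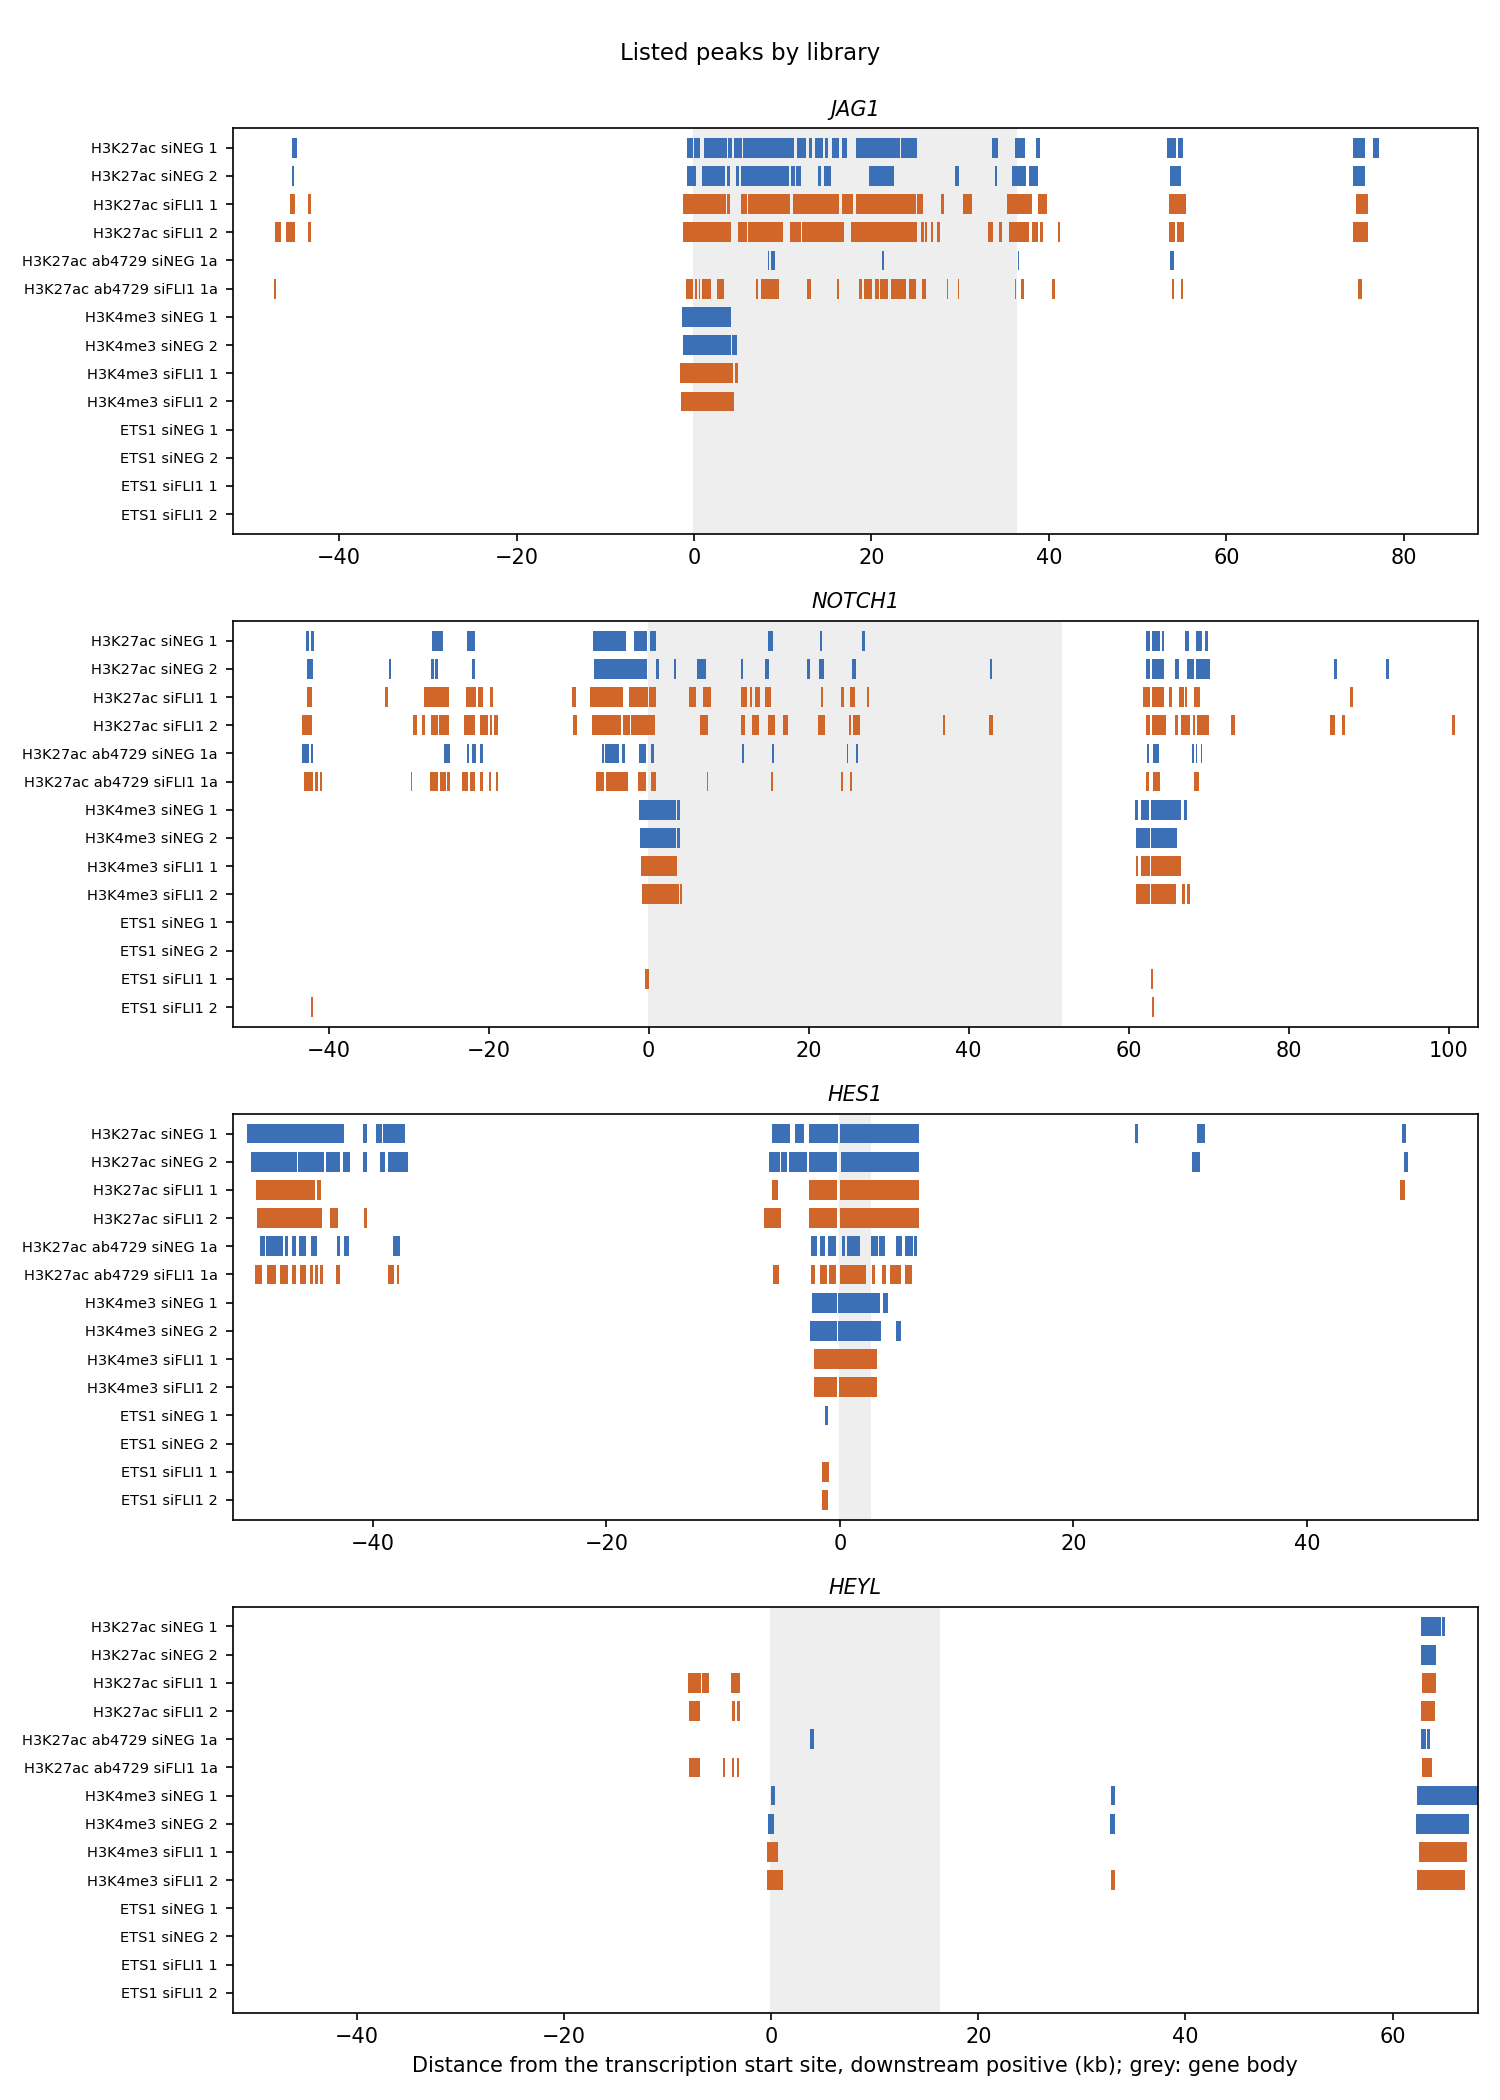
Listed peaks by distance from the start site (kb, downstream positive) at JAG1, NOTCH1, HES1 and HEYL, 1 row per list, blue for siNEG, orange for siFLI1 and grey for the gene body. HES1 peaks 38.4 kb upstream are in the siNEG rows of replicated H3K27ac and in both ab4729 rows, and HEYL peaks 3.4 and 7.4 kb upstream are in siFLI1 rows only.

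For H3K4me3, 2 of 9 genes tested rose and none fell at an adjusted p of 0.05 in the limma fit, nor did the count change at an unadjusted p under 0.05. This stands against 7.3% of all genes that rose and 9.19% that fell. NOTCH2 held 0.47 to 0.48 kb in each list and fell below the 500 bp needed for the test. JAG2 held 2.98 and 3.74 kb in siNEG and 4.1 and 4.13 kb in siFLI1, a difference of 0.35 (SE 0.115, limma adjusted p = 0.041). HEY2 held 5.76 and 5.47 kb in siNEG and 6.92 and 6.27 kb in siFLI1, a difference of 0.30 (SE 0.0938, limma adjusted p = 0.031). In both, the arms did not overlap. JAG2 lost its call in 8 of 14 alternatives and HEY2 in 9, among them no scaling (adjusted p 0.11 and 0.098). For JAG2 they included leaving out siNEG replicate 1 (0.23, adjusted p 0.29), siFLI1 replicate 1 (0.34, 0.22) or siFLI1 replicate 2 (0.36, 0.19). For HEY2 each of the 4 libraries left out ended the call, with adjusted p between 0.073 and 0.3.

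Nearest the own start of each gene, JAG2 held 0.95 and 1.4 kb of H3K4me3 in siNEG and 1.56 and 1.92 kb in siFLI1. HEY2 held 1.34 and 1.47 kb in siNEG and 2.16 and 1.63 kb in siFLI1, and HEYL held 0.35 and 0.65 kb in siNEG and 1.05 and 1.57 kb in siFLI1. JAG1 held 5.5 and 5.94 kb in siNEG and 6.25 and 6.03 kb in siFLI1. These lengths are as deposited and were not tested. No share over all genes was computed for them, so no count of genes is drawn from them. The whole HEYL window, which holds the promoter of PABPC4, differed by 0.18 (adjusted p = 0.25), and with 10 kb to each side by 0.92 (adjusted p = 0.019, limma). HES1 held 6.11 and 6.39 kb in siNEG and 5.38 and 5.26 kb in siFLI1. Its lists did not overlap, but the difference of -0.12 after scaling did not pass (adjusted p = 0.39, limma). No H3K4me3 region at the members was gained or lost, against 2.17% and 2.83% of all regions, and 21 of 30 (70%) were in all 4 lists, near the 62.6% of all H3K4me3 regions.

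The remaining differences in H3K4me3 were 0.19 for JAG1 (adjusted p = 0.17), 0.11 for HEY1, 0.07 for NOTCH1, 0.04 for DLL1 and -0.09 for NOTCH3, none of which passed in the limma fit. The median was 0.11 over the members and -0.02 over all genes tested, or -0.11 over all genes without scaling. Both siFLI1 lists lay above both siNEG lists at JAG1, JAG2 and HEY2, 3 genes of 9, against 14.2% of all genes, and below at HES1 and NOTCH3, against 50.6%.

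**Figure D4:**
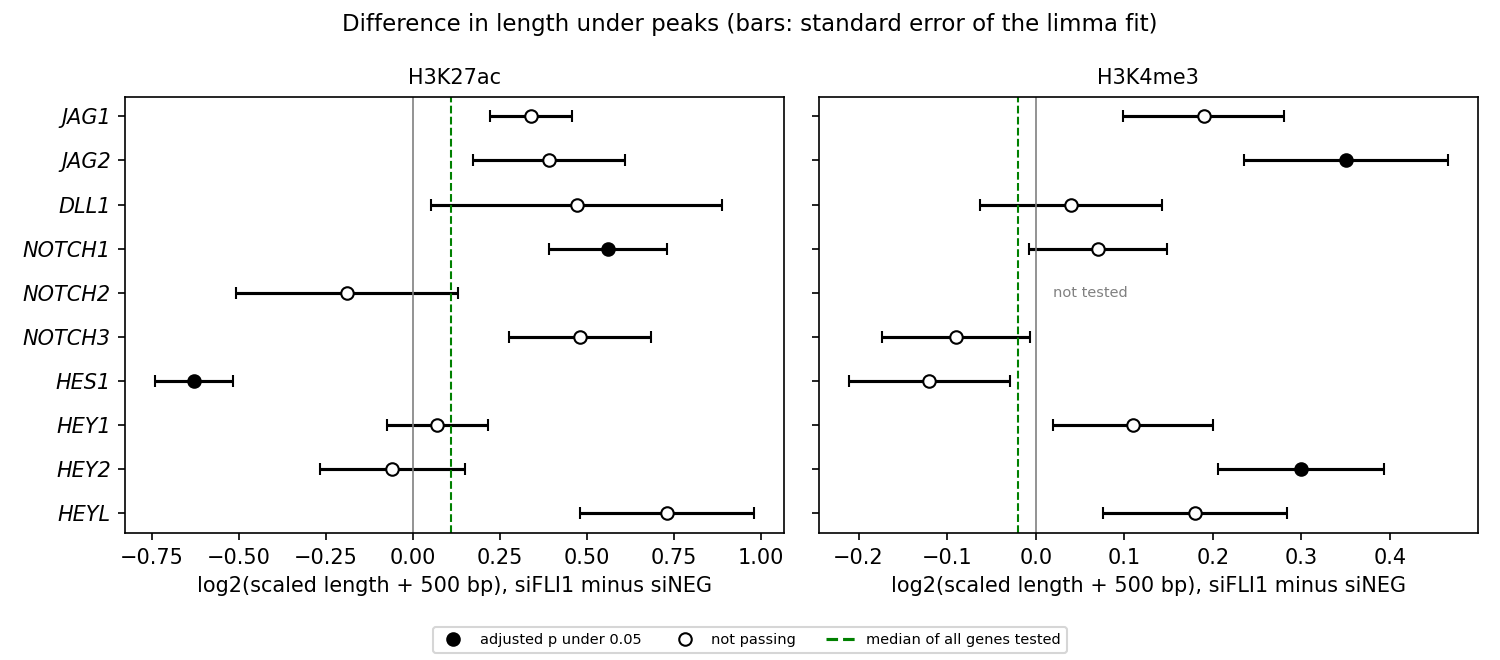
Difference in log2(scaled length + 500 bp), siFLI1 minus siNEG, with its standard error from the limma fit, for H3K27ac (left) and H3K4me3 (right); filled points pass an adjusted p of 0.05, and the dashed line is the median over all genes tested. NOTCH1 (0.56) and HES1 (-0.63) pass for H3K27ac, and JAG2 (0.35) and HEY2 (0.30) for H3K4me3; NOTCH2 was not tested for H3K4me3.

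ETS1 was listed at 4 of the 10 genes' windows, HES1, HEY1, NOTCH1 and NOTCH3, in 9 regions, and in the windows of 29.5% of coding genes. The same 4 genes had an ETS1 peak of any list within 1 kb of the start, as did 11.4% of coding genes. Of the 9 regions, 4 were in both siFLI1 and neither siNEG list, 44.4% against 44% of all ETS1 regions, and none was lost, against 0.0739%. Since the siFLI1 lists were counted as 1 sample and are longer than the siNEG lists, the count is a description. No test was made of it. No ETS1 peak was listed in the windows of JAG1, JAG2, DLL1, NOTCH2, HEY2 or HEYL.

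At HES1 the ETS1 region lay 1.2 kb upstream, at chr3:194134582-194135220. It had a fold of 5.9 in siNEG replicate 1, no peak in siNEG replicate 2, and folds of 10.6 and 16.7 in siFLI1, at percentiles of 94.1 and 98.0. It was the highest in rank of the ETS1 regions at the members. At HEY1, a region at the start site (chr8:79767597-79768132) had folds of 7.0 and 8.9 in siFLI1 and no peak in siNEG. A weaker region 1.2 kb upstream had folds of 4.3 and 3.1. At NOTCH3, a region 0.8 kb downstream of the start (chr19:15200015-15200473) had folds of 5.0 and 7.2 in siFLI1 and no peak in siNEG.

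The NOTCH1 promoter was in the ETS1 list of siFLI1 replicate 1 alone, at a fold of 2.9, and the fourth gained region of these windows lay at the promoter of the neighbour SEC16A, with folds of 5.3 and 6.4. ETS1 at the HES1, HEY1 and NOTCH1 promoters overlapped H3K4me3 and H3K27ac regions that were in all 4 lists. At NOTCH3 it overlapped H3K4me3 but no H3K27ac region of the replicated antibody. ETS1 was within 1 kb of the start in both siFLI1 lists at HES1, HEY1 and NOTCH3, and at 6.87% of coding genes. HES1 counts there only by the edge of its peaks, which reached 73 and 17 bp inside that limit, and its siNEG replicate 1 peak ended just outside it.

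EWSR1::FLI1 is known to bind repeats of GGAA, so runs of at least 4 units, read on both strands, were located in the windows. There were 4 runs, of 5 units at HEY1, 7 and 9 units at NOTCH2 and 5 units at NOTCH3. None of the 109 H3K27ac regions at the members had a run within 1 kb of its centre, against 1.87% of all regions, 11.3% of all lost and 0.62% of all gained regions. Measured from the edges of regions and not their centres, the run at HEY1 lay within 1 kb of a broad region that was in all 4 lists. The runs at NOTCH2 and NOTCH3 had no region that near.

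Of 47 other genes of the pathway, 45 could be tested for H3K27ac and 44 for H3K4me3. For H3K27ac 7 rose, 2 fell and 36 did not pass, and for H3K4me3 8 rose, 6 fell and 30 did not pass. Over all genes 15.9% rose and 8.79% fell for H3K27ac, and 7.3% rose and 9.19% fell for H3K4me3. The median difference was 0.12 for H3K27ac and -0.05 for H3K4me3, close to the 0.11 and -0.02 of all genes. The largest H3K27ac rises were at MFNG, NRARP and CIR1. MFNG, a glycosyltransferase of the Fringe family that modifies Notch receptors, was at 0 kb in both siNEG lists and at 2.88 and 3.18 kb in siFLI1 (limma adjusted p = 0.00075). None of that length lay within 1 kb of the MFNG start.

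NRARP, a Notch-induced inhibitor of the pathway, held 1.62 and 0.62 kb of H3K27ac in siNEG and 4.8 and 2.96 kb in siFLI1, a difference of 1.37 (limma adjusted p = 0.018). CIR1, a corepressor that binds RBPJ, held 0 and 0.35 kb in siNEG and 0.99 and 1.39 kb in siFLI1 (limma adjusted p = 0.049). The falls were at DTX3, of the Deltex family (4.09 and 4.39 kb against 2.08 and 1.99 kb, difference -1.03, limma adjusted p = 0.0083), and at MAML3, a Mastermind coactivator (-0.34, limma adjusted p = 0.026). At each of these 5 genes the arms did not overlap, but the genes were named because they passed the fit of the same lengths. Over all genes, both siFLI1 lists lay above both siNEG lists at 51.7% and below at 15.8%.

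For H3K4me3, the largest rises were at NEURL1, a ubiquitin ligase for Notch ligands (0.83, limma adjusted p = 4.2e-05), MAML2, a Mastermind coactivator (0.61, 1.5e-05), and APH1B, a gamma-secretase subunit (0.56, 0.0064). The largest falls were at CREBBP, a histone acetyltransferase (-0.32, limma adjusted p = 0.0078), RFNG, another Fringe enzyme (-0.32, 2e-04), and HES5, a HES repressor (-0.31, 0.048). The HES5 promoter itself had no H3K4me3 peak in any of the 4 lists, so its length lay elsewhere in the window. NRARP, which rose in H3K27ac, fell in H3K4me3, with 12.78 and 12.35 kb in siNEG and 9.64 and 9.86 kb in siFLI1 (-0.26, limma adjusted p = 0.018). Most of that length lay elsewhere in the window, since the peak at the NRARP promoter was 3.2 and 2.76 kb long in siNEG and 2.57 and 2.64 kb in siFLI1.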

How the data were processed

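Peak lists of 14 libraries were analysed. Per the submitters' processing notes, cutadapt 4.4, BWA 0.7.17, Picard 2.17.11 and MACS2 2.1.1 were used with builds GRCh38, hg38 and dm6, whose roles are not given in the sources used here. Neither are control libraries, the q limit or read depth. The authors' deposited fold column (a ratio over local background) and −log10 p and q columns describe each peak. The lowest −log10 q per list was 2.01 to 2.55. The authors' deposited score column was not used. A stronger precipitation or deeper library puts more peaks into a list, so presence is not occupancy.

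Only the autosomes and chromosomes X and Y were used. Lists of an antibody were merged at 1 bp of overlap, and regions were called gained or lost only when all 4 lists fitted. Start sites came from GENCODE v44. Lengths under peaks were scaled to equal totals and tested with limma 3.58.1 (R 4.3.3, trend and robust), for genes of at least 500 bp mean length, with Benjamini-Hochberg adjustment. The fit was also run on simulated data that gave every gene the same spread. Real windows differed in spread, so no support for the calls is drawn from that run. Since the labels do not name separate cultures, p-values measure the spread between these libraries, which may be technical. The ab4729 label also gives the catalogue number of the replicated antibody, so the pair was kept apart. The members and gene lists were chosen with earlier results of these data known. Named genes were the members, the 3 largest passing changes per direction among other pathway genes, and genes with a gained or lost region at their promoter in a member window. DES was named after its values were seen, and so was NRARP in H3K4me3. Some results under these rules are not reported here.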

Additional observations from a re-analysis of the deposited data

How the results depend on the processing

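Over 29 results, 380 alternative values were computed. Of the counts, 74 stayed within 1.5 times and 42 moved. Of the log2 differences of single genes, 207 kept their direction and side of the threshold, 12 came to pass it, 28 ceased to pass it and 17 changed sign. The cause was not tested except where fewer lists or genes entered.

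Gained H3K27ac regions at the 10 genes numbered 6 (of 109, against 5.95%) when absence meant no peak within 1 kb and 5 (of 52, against 8.19%) with 10 kb to each side, and 11 to 32 with 1 library left out (the 32 in each case without a siFLI1 library, of 97 and 100 regions, against 22.4% and 25.2% of all regions). Lost ones numbered 5 at 50% overlap (against 4.37%), 1 with absence within 1 kb (3.31%) and 0 with 10 kb to each side (4.86%), and 4 to 15 with 1 library left out (the 15 of 112 against 19.2%). Lost H3K4me3 regions numbered 1 with 100 kb to each side (of 48, against 2.83%). With 1 library left out, H3K4me3 gains were 0 to 3 (the 3 of 30 against 7.48%) and losses 0 to 2 (each 2 of 30 against 17.3% and 13.8%). Gained ETS1 regions numbered 1 with equal numbers of peaks per list (of 1 region left, against 10.0% of all ETS1 regions), and 4 to 7 with 1 library left out (the 7 of 8 against 85.9%).

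Over all genes, H3K27ac was longer at 2500 and shorter at 1380. Without scaling these were 3786 and 944, without the length filter 1491 and 876, without trend and robust 1376 and 723, with 10 kb to each side 1341 and 815. With 1 library left out they were 413 to 2716 and 442 to 1276. H3K4me3 was longer at 1172 and shorter at 1476. Without scaling these were 760 and 3535, and with 10 kb 684 and 618. Without trend and robust 301 were shorter. With 1 library left out they were 339 to 701 and 329 to 551.

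No difference passed after changing sign. For H3K27ac they were DLL1 (-0.21 without siNEG replicate 2, up to 1.15 with another library left out), NOTCH2 (0.11 without siNEG replicate 2, 0.12 without siFLI1 replicate 1, 0.09 with 100 kb, down to -0.50 with a library left out), NOTCH3 (-0.03 with 100 kb), HEY1 (-0.02, -0.09 and -0.14 in the same 3 settings as NOTCH2, up to 0.22 with a library left out) and HEY2 (0.07 without scaling, -0.16 to 0.04 with a library left out). For H3K4me3 they were DLL1 (-0.05 without scaling, -0.09 to 0.17 with a library left out, -0.03 at a −log10 q of at least 5), NOTCH1 (-0.02 without scaling, -0.01 to 0.16 with a library left out, -0.10 with 100 kb) and HEYL (0.00 with 100 kb).

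Same-numbered libraries did not deviate together (r = 0.013 for H3K27ac and 0.004 for H3K4me3 across genes), and with 2 pairs the numbers were not taken to pair them. With a replicate block, 2864 and 1535 genes were longer and shorter in H3K27ac and 1217 and 1472 in H3K4me3. JAG1 (limma adjusted p = 0.036) and HEYL (0.044) then passed for H3K27ac, and NOTCH1 (0.0017), HES1 (0.00077), JAG2 (0.038) and HEY2 (0.02) passed as before. For want of a stated depth, no interval for counting error was given.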
